A study of Mus musculus with 2 samples.

Results

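The miR-15/16 family of microRNAs (miRNAs) was counted in midbrain of B6NCrl mouse embryos at 15.5 days of development. Its members were taken by gene symbol: Mir15a, Mir15b, Mir16-1, Mir16-2 and Mir195a by the reads on their own strand, and Mir497 by the reads that lie on the strand opposite to its facing gene Mir497b. These 6 genes were read from 6 of the 1973 gene rows in the tables, 5 rows of their own and that of Mir497b. Each of the 2 libraries holds RNA shorter than 30 bases from healthy tissue pooled over male and female embryos, 78 embryos for replicate 1 and 62 for replicate 2. No other tissue, age or treatment was measured, so the data can be asked which copies of the family were read, in what proportion, and how far the pools differed. Levels are given as CPM (reads scaled to a library of 1000000) over the 3429704 (replicate 1) and 5752476 (replicate 2) sense reads assigned to miRNA genes. A single read was worth 0.292 and 0.174 CPM.

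A miRNA is cut from a hairpin precursor, and bases 2 to 8 of the mature strand, its seed, pair with target mRNAs and largely set which mRNAs are repressed. The miR-15/16 family restrains cell division, with cyclins, cyclin-dependent kinases and the survival factor Bcl2 among its known targets. Its genes come as linked pairs. Mir15a and Mir16-1 lie in the noncoding gene Dleu2, whose human counterpart is often deleted in chronic lymphocytic leukaemia, Mir15b and Mir16-2 lie in Smc4, which encodes a condensin subunit, and Mir497 and Mir195a form the remaining pair.

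The 5′ arms are shown because they define the family: all 5 carry the same seed, in capitals, and differ only outside it. Sequences are from RefSeq (GRCm38.p6), 5′ to 3′, and all 7 gene entries, Mir497b included, had a mature sequence there.
miR-15a-5p: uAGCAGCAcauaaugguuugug
miR-15b-5p: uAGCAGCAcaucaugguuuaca
miR-16-5p: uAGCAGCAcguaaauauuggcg
miR-195a-5p: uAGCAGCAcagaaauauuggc
miR-497a-5p: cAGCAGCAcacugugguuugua
With positions counted from 1 at the 5′ end, miR-15a-5p and miR-15b-5p are identical at 18 of 22 positions and differ by A12C, G20A, U21C and G22A. Between miR-16-5p and miR-195a-5p, 19 of 21 compared positions are identical, with G10A and U11G. The miR-15 and miR-16 types are further apart, with 16 of 22 positions shared by miR-15a-5p and miR-16-5p. The first base differs only in miR-497a-5p (U1C against miR-15a-5p).

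The 3′ arms of the Mir16 copies are shown because they tell these genes apart, whereas miR-16-5p is the product of both. Capitals again mark bases 2 to 8.
miR-16-1-3p: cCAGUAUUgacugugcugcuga
miR-16-2-3p: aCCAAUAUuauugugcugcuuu
miR-497a-3p: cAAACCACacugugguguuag
miR-497b: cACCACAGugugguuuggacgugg
The 3′ arms of Mir16-1 and Mir16-2 share 12 of 22 positions and no seed. The last sequences show how Mir497 and Mir497b face each other: 17 bases of miR-497b lie across from miR-497a-3p on the other strand and are complementary to it, while none lie across from miR-497a-5p.

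The Mir16-1 and Mir16-2 hairpins share an unbroken run of 23 bases that holds all 22 bases of miR-16-5p and 1 base after it. A read that lies wholly within that run matches both genes. The tables tally reads that map to more than 1 place in a row of their own, 2847913 in replicate 1 and 4694526 in replicate 2. In the format that the layout matches, such reads are assigned to no gene; that this held here was inferred from the layout and not tested. If so, the counts of Mir16-1 and Mir16-2 hold only reads that tell the copies apart, such as those of the 3′ arms or those that extend past the shared run, and the level of miR-16-5p itself cannot be read from them. Of 1005 RefSeq hairpins, none outside the pair holds miR-16-5p. The arms of Mir15a, Mir15b, Mir195a and Mir497 occur in no other gene's hairpin among those searched. The hairpin of Mir15a itself was not among them. The search took exact matches of whole arms in hairpins and not in the genome, so it cannot show that these genes lost no reads to several places. The tables count reads per gene and do not separate the arms.

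On mm10, Mir15a lies at chr14:61632027-61632110 and Mir16-1 at chr14:61631880-61631972, both on the minus strand and 54 bases apart. Mir15a is intronic in Dleu2, and Mir16-1 is intronic except for 13 bases that overlap an exon of a single Dleu2 transcript. Mir15b at chr3:69009772-69009835 and Mir16-2 at chr3:69009902-69009996 are on the plus strand, 66 bases apart, and intronic in Smc4. Mir497 at chr11:70234717-70234800 and Mir195a at chr11:70235042-70235135 are on the plus strand with 241 bases between them, and GENCODE M21 lists no host gene over either. Mir497b, at chr11:70234692-70234816 on the minus strand, covers all 84 bases of the Mir497 hairpin.

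Of the family's reads that were assigned to a gene, the pair in Dleu2 gave most. Mir15a had 11736 reads in replicate 1 and 17358 in replicate 2, or 3422 and 3017 CPM, a mean of 3219.7 ± 286 CPM (SD, n = 2). Mir16-1, 54 bases away, had 9532 and 13707 reads, or 2779 and 2383 CPM (2581 ± 280.3). Both genes were higher in replicate 1, and the ranges of the 2 genes did not overlap. By level Mir15a ranked 53rd and 58th and Mir16-1 59th and 66th among the 1973 genes in replicates 1 and 2.

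The pair in Smc4 had several times fewer assigned reads. Mir15b had 2626 and 4023 reads, or 766 and 699 CPM in replicates 1 and 2 (733 ± 46.9). Mir16-2 had 1593 and 2211 reads, or 464 and 384 CPM (424 ± 56.7). These genes, too, were higher in replicate 1, and Mir15b lay above Mir16-2 in both libraries. Their ranks were 100th and 104th for Mir15b and 125th and 139th for Mir16-2.

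The pair on chromosome 11 was at the level of the assigned reads of Mir16-2. Mir195a had 1580 and 2704 reads, or 461 and 470.1 CPM (465 ± 6.63), the smallest spread of the 6. Mir497, read from the opposite strand of Mir497b and scaled to the same sense totals, had 1529 and 2212 reads, or 446 and 385 CPM (415 ± 43.3). Mir195a stood slightly higher in replicate 2 on this scale, and Mir497 stood higher in replicate 1.

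**Figure D1:**
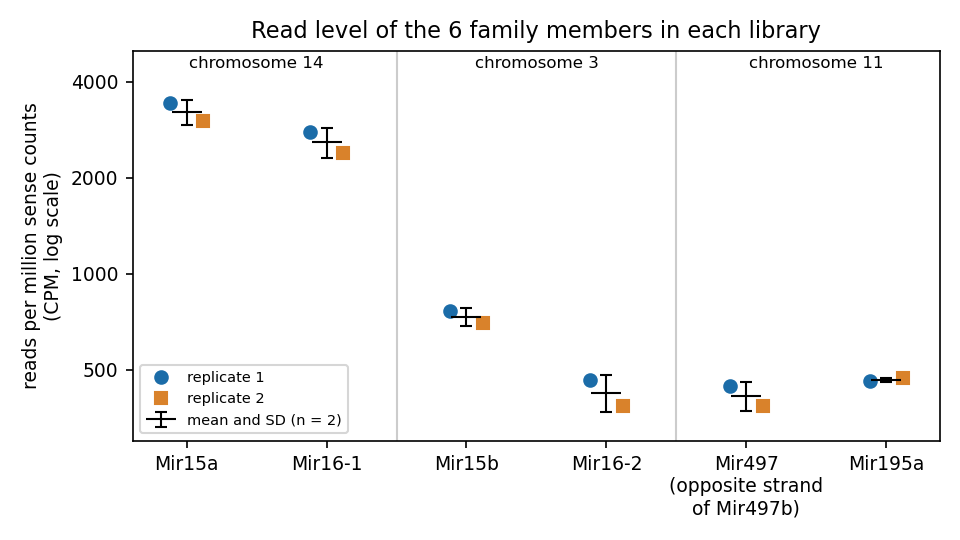
Level of each member in CPM (log axis) in replicate 1 (circles) and replicate 2 (squares), with the mean and SD over the 2 libraries in black, grouped by chromosome. Mir15a and Mir16-1 lie between 2383 and 3422 CPM, Mir15b between 699 and 766, and the other 3 genes between 384 and 470.1.

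By assigned reads, from the highest mean down, the order was Mir15a, Mir16-1, Mir15b, Mir195a, Mir16-2 and Mir497. The places of Mir16-1 and Mir16-2 carry the limit on reads that match both copies. With such reads added, either gene could rank higher, above its Mir15 partner too, and this was not tested. Mir15a, Mir16-1 and Mir15b were each separated from the next gene in both libraries without overlap of their ranges. Of the last 3, Mir195a lay above Mir497 in both libraries without overlap, with means 50.2 CPM apart. Mir16-2 could not be placed against either. Mir195a and Mir16-2 differed in mean by 40.96 CPM, within the SD of Mir16-2, and stood in opposite order in the libraries. Mir16-2 and Mir497 differed by 9.24 CPM, less than the SD of either. All genes were read in the same 2 libraries, where an exact two-sided paired permutation test cannot give a p below 0.5, so no test of the order was run.

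Summed by pair, the members in Dleu2 held 6201 and 5400.3 CPM in replicates 1 and 2, those in Smc4 1230.1 and 1084 CPM, and those on chromosome 11 906 and 855 CPM. The Dleu2 pair was thus 5.04 and 4.98 times the Smc4 pair, and 6.84 and 6.32 times the chromosome 11 pair. As shares of the 6 members' reads, the Dleu2 pair made up 74.4% in replicate 1 (95% exact Clopper-Pearson interval 73.9 to 74.9) and 73.6% in replicate 2 (73.2 to 74.01). The Smc4 pair held 14.8% in both (14.3 to 15.2 and 14.4 to 15.1). The chromosome 11 pair held 10.9% (10.5 to 11.2) and 11.6% (11.3 to 11.96). The split by pair thus differed between the pools by about 1 percentage point or less. Intervals here and below cover counting error only, and these shares carry the limit on miR-16-5p reads given above.

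Of all sense reads, the 4 Mir15 and Mir16 genes together held 0.743% in replicate 1 (0.734 to 0.752) and 0.648% in replicate 2 (0.642 to 0.655), a mean of 0.696 ± 0.0670% (SD, n = 2). Adding Mir195a gave 0.742 ± 0.0663%.

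Within each pair the larger assigned count was at most 1.82 times the smaller. Mir15a had 1.23 times the reads of its neighbour Mir16-1 in replicate 1 (95% exact counting interval 1.20 to 1.27) and 1.27 times in replicate 2 (1.24 to 1.295). Mir15b had 1.65 times the reads of Mir16-2 in replicate 1 (1.55 to 1.76) and 1.82 times in replicate 2 (1.73 to 1.92). In both of these pairs the Mir15 gene led its Mir16 partner in each library, and the intervals of the 2 libraries overlapped. These ratios set all arms of the Mir15 gene against the reads assigned to the Mir16 gene. With miR-16-5p reads that match both copies added, the ratios would be lower and their direction could differ, and this was not tested. Mir497 over Mir195a was 0.968 in replicate 1 (0.901 to 1.04), an interval that includes equal counts, and 0.818 in replicate 2 (0.773 to 0.866), which does not. For this pair the intervals of the libraries did not overlap.

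Between the pairs the gaps were wider and repeated closely. Mir15a had 4.47 times the reads of Mir15b (4.28 to 4.66) in replicate 1 and 4.31 times (4.17 to 4.47) in replicate 2. For Mir16-1 over Mir16-2 the ratio was 5.98 (5.67 to 6.31) and 6.20 (5.93 to 6.49). As log2 ratios of CPM after adding a pseudocount of 1, these are 2.13 ± 0.0360 and 2.60 ± 0.0357 (SD, n = 2), so that the difference between the pairs was many times the replicate spread. The Mir16 ratio carries the limit on reads that match both copies.

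**Figure D2:**
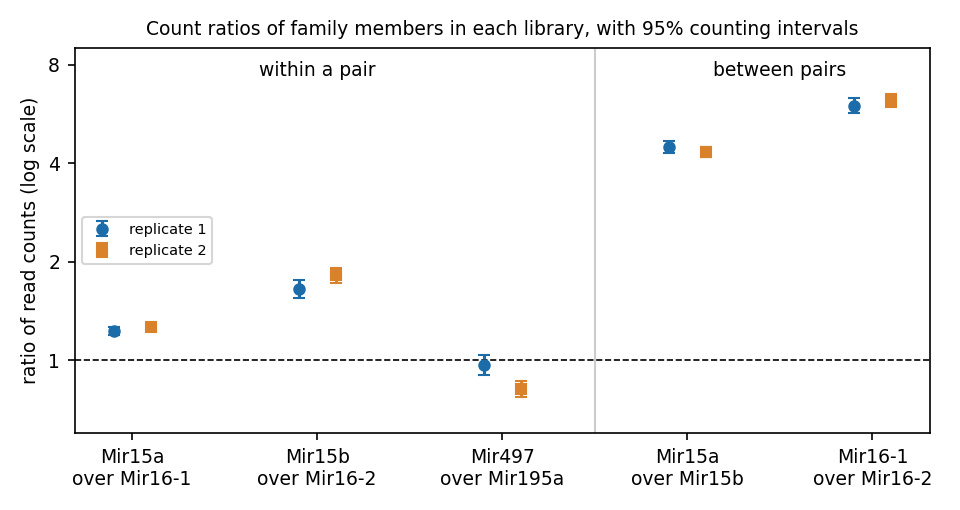
Ratio of read counts (log axis) for the 3 ratios within a pair and the 2 between pairs, in replicate 1 (circles) and replicate 2 (squares), with 95% counting intervals and a dashed line at equal counts. The ratios within a pair lie between 0.818 and 1.82, those between pairs between 4.31 and 6.20.

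Neighbouring miRNA genes were often much further apart in assigned reads than these pairs. Outside the family, 67 pairs of same-strand neighbours at most 1000 bases apart had a mean of at least 1 CPM in both genes. The absolute log2 ratio of their levels had a median of 3.02, which is 8.09-fold, and quartiles at 1.47 and 5.34. The pair Mir15a and Mir16-1 had 0.32, and 4 of the 67 pairs were closer. Mir15b and Mir16-2 had 0.79, and 11 of 67 were closer. Mir497 and Mir195a had 0.17, closer than each of the 67, though Mir497 was read through the facing gene. In replicate 1 alone this pair had 0.047 and none of the 67 was closer, and in replicate 2 alone it had 0.29 and 2 were closer. Among the 26 such pairs with both genes at 100 CPM or more, as all members are, the median was 2.30, and 3, 8 and 0 pairs were closer. Some of the outside pairs hold copies of a miRNA, such as Mir19b-1 and Mir19b-2, whose reads could likewise match more than 1 gene. How far this widened the outside ratios was not tested. A gene in a longer cluster can also enter 2 pairs. These counts describe the assigned reads of these libraries and are not a test.

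**Figure D3:**
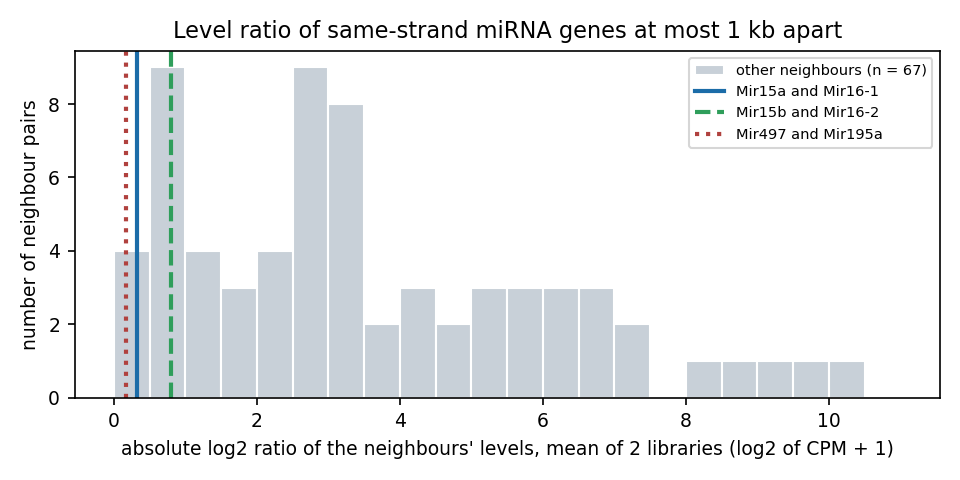
Number of neighbour pairs (67 outside the family, same strand, at most 1000 bases apart, mean of at least 1 CPM) by the absolute log2 ratio of their levels, with vertical lines for the 3 family pairs. The family pairs lie at 0.17, 0.32 and 0.79, and the median of the others is 3.02.

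Between the pools, most members were lower in replicate 2. After TMM scaling (edgeR's trimmed mean of log ratios), with a pseudocount of 1 CPM, the log2 ratio of replicate 2 over replicate 1 was -0.21 for Mir15a (95% counting interval -0.25 to -0.18), a fold of 0.862. Mir16-1 had -0.26 (-0.29 to -0.22), Mir15b -0.16 (-0.24 to -0.093) and Mir16-2 -0.31 (-0.40 to -0.21). Mir195a had -0.0044 (-0.094 to 0.086).

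In a two-sided conditional exact binomial test over all genes with a count, the Benjamini-Hochberg adjusted p was 5.77e-34 for Mir15a, 2.46e-38 for Mir16-1, 5.06e-05 for Mir15b, 1.42e-09 for Mir16-2 and 1 for Mir195a. Of the 5 members on the sense strand, 4 were thus higher in replicate 1 and 0 in replicate 2, where 19.8% of all 717 genes tested were called, 72 (10%) higher in replicate 1 and 70 (9.76%) in replicate 2. All 5 entered the test without a filter on low counts. At 100 CPM or more, where the reads suffice to call small differences, 116 of 203 genes were called. Of the 203, 59 (29.1%) were higher in replicate 1 and 57 in replicate 2. The median log2 ratio was -0.21 over the 5 members, 0.036 over all genes tested and -0.0044 over those of at least 100 CPM. The 4 calls and their direction held with DESeq2 size factors, total counts and upper-quartile scaling.

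Mir497 was tested in a fit of counts on either strand, where 9.76% of 738 genes were higher in replicate 1. Its log2 ratio was -0.24 (-0.34 to -0.15), with an adjusted p of 3.72e-06 in the same exact binomial test. Mir497 and Mir195a, neighbours on chromosome 11, therefore stood on different sides of the threshold, and their counting intervals did not overlap. That difference was not tested by itself.

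The test compares 2 libraries beyond counting error and no conditions. With a coefficient of variation of 10% between replicates allowed for, edgeR's exact test called 0 of the 5 members (0 at an unadjusted p under 0.05), against 3 of 717 genes, or 0.418%, and 31 of 717 at an unadjusted p under 0.05.

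**Figure D4:**
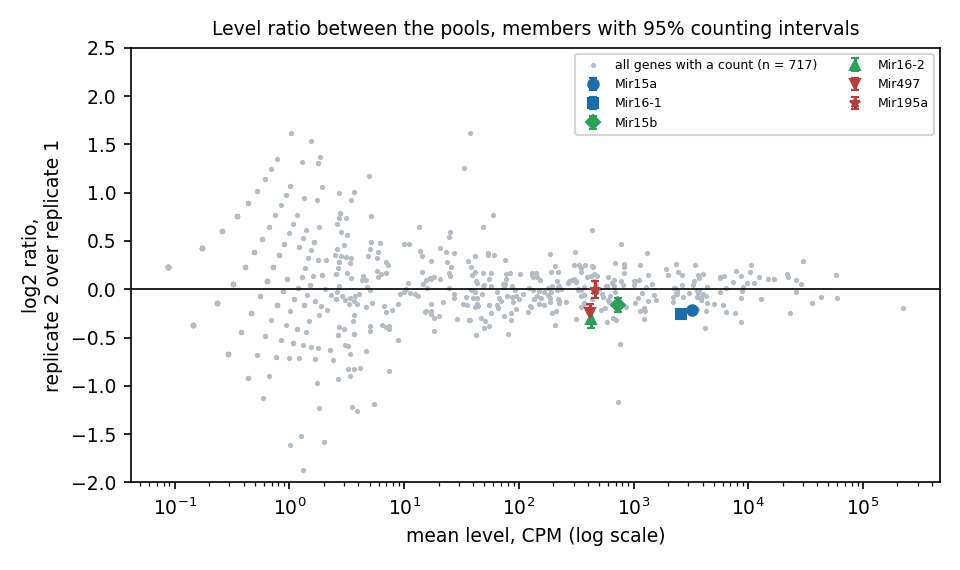
Log2 ratio of replicate 2 over replicate 1 against mean level in CPM (log axis) for the 717 genes with a count (grey) and the 6 members with 95% counting intervals, colored by chromosome (Mir497 from the fit of either-strand counts). Mir15a, Mir16-1, Mir15b, Mir16-2 and Mir497 lie between -0.31 and -0.16, and Mir195a at -0.0044.

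Reads on the opposite strand are rare in these tables, 2.23% of reads on either strand in replicate 1 and 2.36% in replicate 2. Of 1973 genes, 67 had any. Mir497b had 1529 and 2212 such reads and 0 reads on its own strand in either library, which allows a sense share of up to 0.196% and 0.136% of the reads at that gene. It is 1 of 9 genes that had at least 1 CPM of opposite-strand reads and no sense read, and it ranked 8th by opposite-strand reads. The other 5 members had 0 opposite-strand reads, like 175 of the 203 genes with at least 100 CPM. Because the Mir497 hairpin lies wholly within the span of Mir497b, reads in that span on the plus strand are reported here as those of Mir497, which has no row of its own among those used here.

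The seed of the family is found outside these pairs as well. In RefSeq, 12 genes have a mature strand that shares bases 2 to 7 with miR-15a-5p, the 6 members and 6 others. Mir322, on the X chromosome, was the highest of the 12, with 7138 and 7669.9 CPM in replicates 1 and 2 (7404 ± 376). That is 2.09 (2.04 to 2.13) and 2.54 (2.50 to 2.59) times Mir15a. Its 5′ arm, shown for comparison with the 5′ arms above, has the same seed. The 5′ arm of Mir503, shown after it, shares bases 2 to 7 and not the whole seed.
miR-322-5p: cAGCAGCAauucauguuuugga
miR-503-5p: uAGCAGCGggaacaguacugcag
The 6 members together held 53.6% of the reads of the 12 genes in replicate 1 and 48.7% in replicate 2, and Mir322 alone 45.9% and 50.9%. Of the reads assigned to a gene, members and Mir322 thus took about equal parts, and which was larger differed between the pools. Any miR-16-5p reads that match both copies would add to the members' part and were not counted. Mir503, a neighbour of Mir322 that shares bases 2 to 7 and not base 8, had 91.8 and 67.8 CPM (79.8 ± 17.0). Mir195b, Mir6342, Mir6353 and Mir6419 carry the whole seed and had 0 reads in both libraries, below a floor of 3 counts or 0.875 and 0.522 CPM. Mir195b differs in this from Mir195a although miR-195b and miR-195a-5p share their first 16 bases.

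Mir103-1, Mir103-2 and Mir107 belong to a wider group related to miR-15, in which the same core lies a base nearer to the 5′ end. Mir107 had 2255 and 2325 CPM (2290.1 ± 49.2), between Mir16-1 and Mir15b. Mir103-2 had 56.3 and 58.9 CPM and Mir103-1 5.54 and 6.26 CPM. The mature miR-103-3p is the same from both of its genes, as miR-16-5p is, and the low counts of its genes carry the same limit. Of the 9 related genes outside the family, 5 had reads and were tested, and 2 were called, against 19.8% of all genes. At 100 CPM or more, which Mir503, Mir103-1 and Mir103-2 did not reach, 116 of 203 genes were called. Mir322 was higher in replicate 2 (log2 ratio 0.070, adjusted p 9.79e-09, exact binomial test), and Mir503 in replicate 1 (-0.47, adjusted p 1.49e-04). Neither was called by edgeR's exact test with a coefficient of variation of 10% (adjusted p 1 for both).

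**Figure D5:**
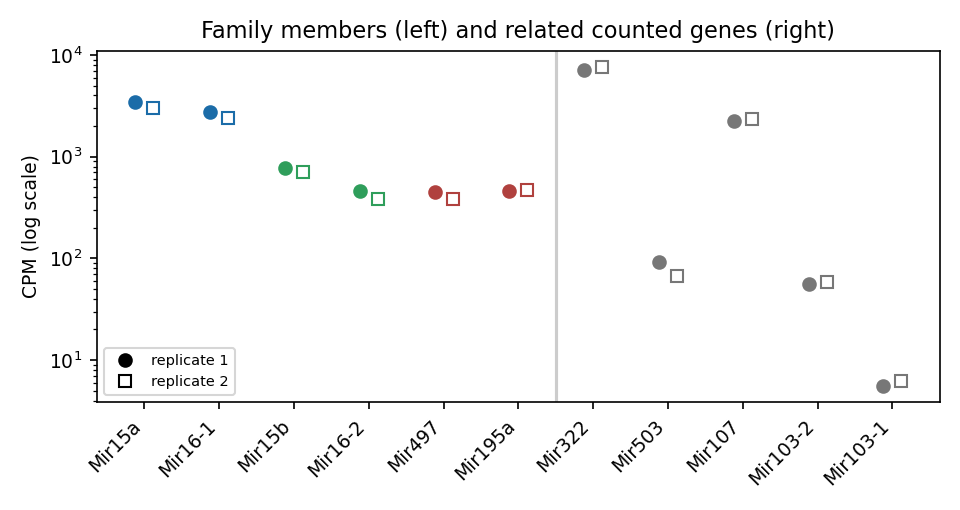
CPM (log axis) of the 6 members, colored by chromosome, and of the 5 related genes with reads (grey), in replicate 1 (filled circles) and replicate 2 (open squares). Mir322 lies highest, at 7138 and 7669.9 CPM, Mir107 between Mir16-1 and Mir15b, and Mir103-1 lowest, at 5.54 and 6.26 CPM.

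Genes outside the family with the most similar levels over the 2 libraries, by distance in log2(CPM + 1), were Mir298 (0.17) and Mir139 (0.19) for Mir15a, and Mirlet7f-2 (0.14) and Mir379 (0.20) for Mir16-1. For Mir15b they were Mir325 (0.040) and Mir674 (0.071), and for Mir16-2 Mirlet7c-1 (0.13) and Mir485 (0.16). With 2 libraries this likeness is little more than a like mean level.

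The tissue label was checked against marker miRNAs. Neuronal markers (Mir124a, Mir128, Mir137 and Mir153) summed to 16182 and 17494 CPM in replicates 1 and 2, with 6 of 7 genes at 1 CPM or more in both. Mir137 held most of that sum, with 10800.1 and 11584.6 CPM, while the 3 Mir124a genes, a foremost neuronal marker, had from 0.522 to 4.08 CPM each. Whether reads of miR-124, which several genes encode, were among those with several places was not tested. Neural progenitor markers (Mir9 and Mir92b genes) summed to 4533 and 4558 CPM. Mir92b held most of that sum, with 4076 and 4045 CPM, while Mir9-3 had 455 and 512 and Mir9-2 1.75 and 1.56. Whether reads of miR-9, which also has several genes, were lost in that way was not tested. Endothelial Mir126a had 24909 and 21568 CPM. Red cell markers summed to 197 and 208 CPM, those of white cells to 232 and 222, and those of muscle, with 1 of 4 genes at 1 CPM or more, to 11.7 and 16.0. The muscle sum came from Mir206 alone. Whether the other muscle genes lost reads to several mapping places was not tested. Liver Mir122 had 43.2 and 76.1 CPM. Bulk tissue cannot tell fewer cells of a type from less RNA per cell, and which cells the family's reads came from was not tested.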

How the data were processed

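The authors deposited whole read counts per miRNA gene for each library, not normalized, in 3 columns: either strand, sense strand and opposite strand. Per the deposited readme text, reads were aligned to mm10 with GENCODE M4. The layout is that of STAR gene counts, but which tool made it is not given in the sources used here. Rows that name no gene held 37.7% and 35.8% (several mapping places), 13.4% and 16.9% (unmapped), 3.57% and 3.43% (outside genes) and 0% (ambiguous) of reads in replicates 1 and 2, and were left out of totals. Of 1973 identifiers, 1894 matched GENCODE M21, on the same assembly, which gave symbols and positions. A chi-square of 27185 with 468 degrees of freedom put the replicates further apart than counting error alone.

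CPM use sense totals. The exact binomial test (scipy 1.17.1) used library sizes scaled by TMM in edgeR 4.0.16, an adjusted p threshold of 0.05 and all genes with a count. It was tested on counts simulated with counting error only. That simulation had no spread between replicates, so it cannot show how the test behaves on libraries that have such spread. DESeq2 1.42.0 gave alternative size factors. Named genes are the members, genes sharing bases 2 to 7 of miR-15a-5p, Mir103-1, Mir103-2, Mir107 the 2 nearest genes in level per Mir15 or Mir16 gene, and the most counted gene where a total leaves it out. Members and lists were chosen with earlier results of these data known. Of the marker list, Mir142a was not matched, so the white cell sums rest on Mir150 and Mir223. Mir9 was matched by Mir9-2 and Mir9-3 only, and Mir1a by Mir1a-1 only. The comparison of neighbours, by library too, and the fit of either-strand counts were chosen after seeing the data.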

Additional observations from a re-analysis of the deposited data

How the results depend on the processing

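Of 94 values recomputed under an alternative, 80 kept their direction and their side of the threshold or stayed within the replicate SD. The share of the Mir15 and Mir16 genes was 0.897% with Mir99a, the most counted gene, left out of the total, and from 0.648% to 0.743% when either replicate was left out. That total raised the mean CPM of each sense member beyond its SD, and with counts on either strand the mean of Mir195a was 455 CPM against 465. Scaled to the total of the opposite-strand column, Mir497b had 17752 CPM. With edgeR's exact test at a coefficient of variation of 10%, the log2 ratios of replicate 2 over replicate 1 were -0.21 for Mir15a, -0.26 for Mir16-1, -0.16 for Mir15b and -0.31 for Mir16-2, with an adjusted p of 1 each, and the number of genes called fell from 142 to 3. That test allows for an assumed spread between replicates, which the binomial test does not. The log2 ratio of Mir195a, never called, was 0.029 with total counts in place of TMM. Each replicate left out leaves 1 library and a value with no test. The absolute log2 ratio of Mir497 over Mir195a was 0.047 without replicate 2 and 0.29 without replicate 1. With neighbours up to 10000 bases apart, an alternative chosen after seeing the data, the median absolute log2 ratio of the 102 pairs outside the family was 2.87. No paired analysis was possible because there is 1 group.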
